A study of Mus musculus with 12 samples.

Results

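The genes described here are 10 members of the interleukin-6 (IL-6) family and its STAT3 axis, chosen by name as the family's best-known inflammatory ligands, their receptor chains, the transcription factor they act through and its feedback inhibitor. Earlier results of these data were known when they were chosen. They are the ligand genes Il6, Lif, Osm and Il11, the receptor genes Il6ra, Il6st, Osmr and Lifr, and Stat3 and Socs3. All 10 were among the 18609 genes listed for each library, and all 10 were among the 12164 genes tested, which had an FPKM (fragments scaled by gene length and by library total) of 0.5 or more in 3 or more libraries. Lifr passed that filter through 4 Salmonella libraries alone, and Il6 passed through the 6 Salmonella libraries and 1 PBS library, so neither had to be detectable in controls to be tested.

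MC38 is a colon cancer line of the mouse, and its tumours were grown in C57BL/6 mice that were either wild type or labelled TLR4 knockout (called knockout here). TLR4 is the receptor through which cells sense lipopolysaccharide of Gram-negative bacteria such as Salmonella. The hosts received an intravenous injection of Salmonella or of phosphate-buffered saline (PBS), and tumours were taken 1 day later. Wild type with PBS, wild type with Salmonella, knockout with PBS and knockout with Salmonella made 4 groups of 3 libraries. Within each group the libraries are named by the ends of their titles (F-1, M-1, M-2), and what F and M stand for is not given in the labels. Age of the mice, strain and dose of Salmonella and the exons deleted in Tlr4 are not given in the labels. Nor is it stated that each library stands for its own animal, so the p-values reflect only how far these libraries lie apart, which may be technical in part.

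IL-6, leukaemia inhibitory factor (LIF), oncostatin M (OSM) and IL-11 are secreted cytokines that all signal through gp130, the protein of Il6st, paired with a chain that gives each ligand its specificity. Binding activates Janus kinases, which phosphorylate STAT3, and STAT3 then enters the nucleus and switches on genes that include Socs3, whose product binds gp130 and shuts the receptor down. In the gut and its tumours this circuit drives epithelial repair and tumour growth. RNA levels report how much of each component's transcript is present and not whether STAT3 protein was phosphorylated.

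For Il6 and Socs3, the ligand and the feedback inhibitor whose RNA the results below turn on, the 250 bases before the RefSeq start are shown (GRCm38.p6), with matches to 3 searched motifs in capitals. The Il6 window is chr5:30012864-30013113 on the plus strand, and the Socs3 window is chr11:117969367-117969616 on the minus strand.
Il6: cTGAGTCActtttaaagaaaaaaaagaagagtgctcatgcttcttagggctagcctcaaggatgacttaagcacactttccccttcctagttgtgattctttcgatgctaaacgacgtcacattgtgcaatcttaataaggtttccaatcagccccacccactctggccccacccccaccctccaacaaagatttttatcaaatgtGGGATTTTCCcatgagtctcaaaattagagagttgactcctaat
Socs3: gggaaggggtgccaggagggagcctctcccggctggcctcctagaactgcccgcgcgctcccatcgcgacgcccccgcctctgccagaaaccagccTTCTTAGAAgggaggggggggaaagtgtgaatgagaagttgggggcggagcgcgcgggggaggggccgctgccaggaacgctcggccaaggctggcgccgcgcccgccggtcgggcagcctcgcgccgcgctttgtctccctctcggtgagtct
The motifs were the STAT motif TTCNNNGAA, the AP-1 motif TGANTCA and the NF-kappaB motif, each searched on both strands, and no 2 of the matches shown overlap. Capitals in the Il6 window mark an AP-1 match that begins 249 bases before the start and an NF-kappaB match, GGGATTTTCC, that begins 44 bases before it. Capitals in the Socs3 window mark a STAT match, TTCTTAGAA, that begins 154 bases before the RefSeq start. The nearest GENCODE start of a Socs3 coding transcript lies 180 bases further downstream, while that of Il6 coincides with the RefSeq start. Of 32851 RefSeq windows of this length, 7.02% held the STAT motif, 7.25% the NF-kappaB motif and 6.75% the AP-1 motif. Windows were at hand for 9 of the 10 genes (all but Osm), and among these Socs3 alone held the STAT motif, Il6 and Lif the NF-kappaB motif, and Il6, Lif and Il11 the AP-1 motif. These letter matches are a description and were not tested as binding sites.

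The libraries held 30512075 to 38764511 fragments on listed genes, and 3 fragments in a gene of 1 kb amount to 0.0774 to 0.0983 FPKM. Tlr4 itself was detected in every library, with a mean of 2.53 ± 0.0534 FPKM (SD, n = 3) in wild-type PBS and 2.99 ± 0.685 in wild-type Salmonella libraries, against 2.29 ± 0.792 and 1.83 ± 0.116 in the knockout groups. A value summed over the whole gene does not show whether some exons are missing. The knockout label is of the hosts and not of the MC38 cells, and how much Tlr4 RNA came from each was not tested. Tlr4 thus neither checks the genotype labels nor contradicts them. The M-2 library of wild-type hosts given Salmonella, called the outlying library below, stood apart from the other 2 of its group, with a chi-square per gene of 145 and 175 against 56.7 between F-1 and M-1. Results that rest on it are given with and without it. Markers of other cells moved with the treatment. The summed level of 10 neutrophil markers was 17.1 to 27.5 FPKM in wild-type PBS libraries and 3077 (F-1), 18810 (M-1) and 2784 (M-2) in wild-type Salmonella libraries. It was 15.7 to 18.0 in knockout PBS and 541.5 to 961 in knockout Salmonella libraries. All 10 neutrophil markers rose in wild-type hosts, where 19.2% of all genes were called higher and 16.2% lower. None of the 10 was at 0 in a Salmonella library. In wild-type PBS libraries 2 were at 0 in at least 1 library, and in knockout PBS libraries Ly6g and Ngp were at 0 in all 3. The filter did not require these markers or those of muscle to be detectable under PBS. Of 8 endothelial markers 7 rose in wild-type hosts, from a sum of 41.1 to 56.9 FPKM to a sum of 93.1 to 120.5. Of 5 tested muscle markers 4 rose, from a sum of 2.68 to 6.35 FPKM to a sum of 41.4 to 90.3, and in knockout Salmonella libraries that sum was 4.09 to 114. Of 8 fibroblast markers 4 rose and 1 fell, and of 7 tested lymphocyte markers 1 fell. Under Salmonella, 9 of the 10 neutrophil, 6 of the 8 endothelial, 3 of the 8 fibroblast and 0 of the 5 muscle markers were called lower in knockout than in wild-type hosts. Of all genes, 5.82% were called lower in that comparison. Of 10 macrophage and monocyte markers 1 rose and 2 fell in wild-type hosts. Epithelial markers were near 0, with a sum of 5 genes of 0.284 to 4.11 FPKM in any library, so the tumour line's epithelial identity was not visible in them. The part of these cells in the results below was not tested, and in bulk tumour RNA, fewer cells of a type and less RNA per cell cannot be told apart.

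In wild-type hosts, the RNA of the ligands Il6 and Osm and the inhibitor Socs3 rose 1 day after Salmonella. None of the 10 genes fell. The receptor chains Osmr and Lifr were also called higher, but Osmr passed in only 12 and Lifr in 16 of 20 alternative fits. Il6 and Lifr could enter the test through their Salmonella libraries alone. The receptor chains Il6ra and Il6st and the factor Stat3 did not pass the test. In knockout hosts none of the 10 passed, although Il6 was higher in every Salmonella library than in any PBS library. The plot of levels by library shows each gene.

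**Figure D1:**
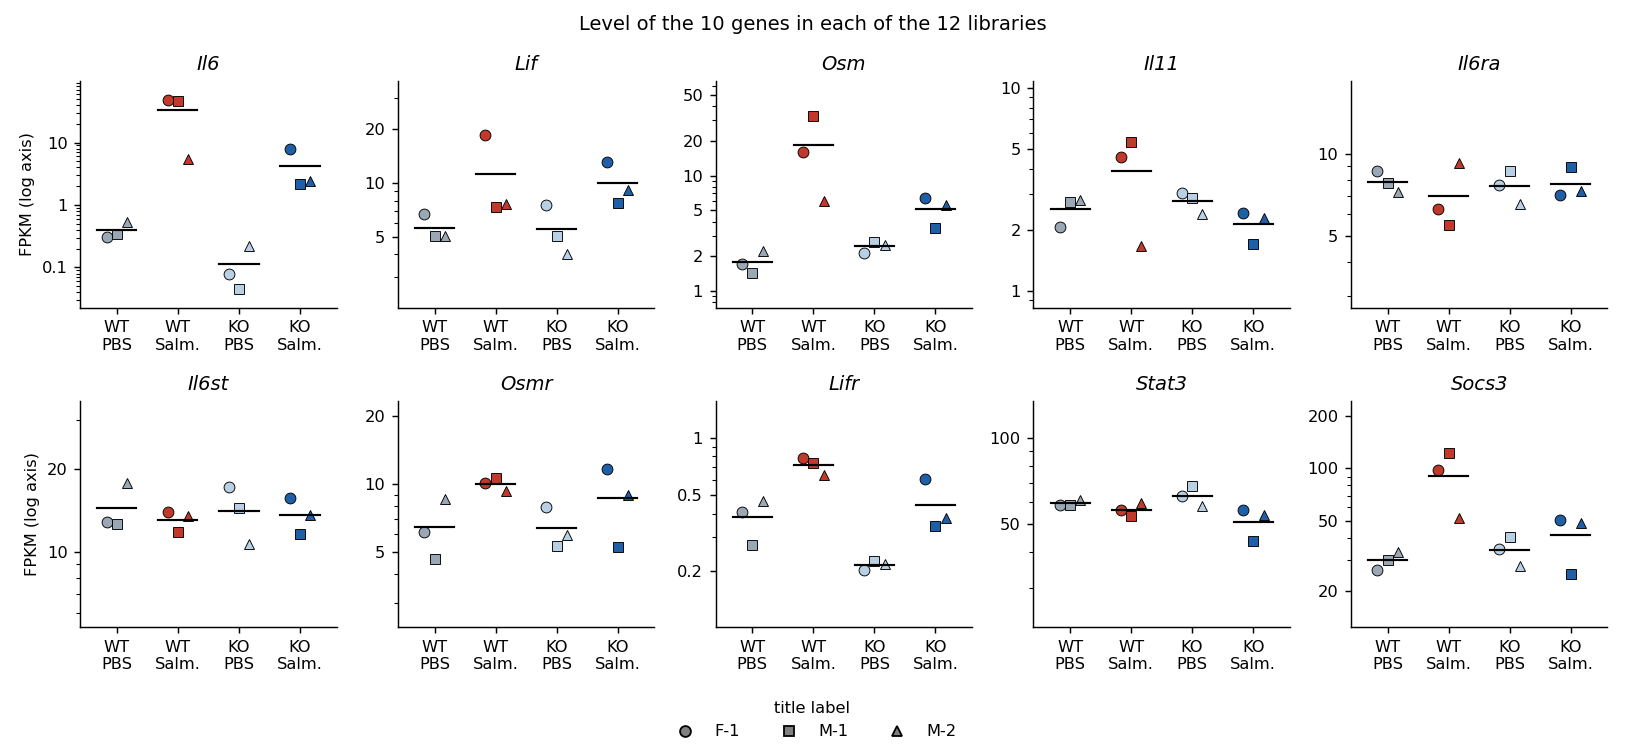
Level of each of the 10 genes in FPKM (log axis) in the 12 libraries, by group, with circles for F-1, squares for M-1 and triangles for M-2, and bars for the mean of 3. Il6 spans from 0.0456 FPKM in a knockout PBS library to 48.2 in a wild-type Salmonella library, while Stat3 stays between 43.6 and 67.9.

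Il6 encodes IL-6 itself, the fever and acute-phase cytokine. Its level in wild-type PBS libraries was 0.304, 0.347 and 0.543 FPKM (F-1, M-1 and M-2 in this order here and below), and in wild-type Salmonella libraries it was 48.2, 46.6 and 5.51. All 3 Salmonella libraries lay above all PBS libraries, and M-2 lay far below its 2 mates. The means were 0.398 ± 0.127 and 33.4 ± 24.2 FPKM (SD, n = 3), a ratio of 83.9, resting on 51 fragments in the 3 PBS libraries and 3702 in the 3 Salmonella libraries. On the scale of log2(scaled FPKM + 0.5), which understates the change of low genes, Il6 rose by 4.92 (SE 0.77, limma, adjusted p = 0.00238). The filter let Il6 in through its Salmonella libraries, so this call is no independent support for a rise. The call also held with no filter. Without the outlying library the rise was 6.01 (adjusted p = 1.34e-05). A fit with voom, limma's method for counts, on the recovered fragments gave 5.89 and did not pass (adjusted p = 0.114).

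In knockout hosts Il6 stood at 0.0794, 0.0456 and 0.216 FPKM under PBS, which is 2 to 9 fragments per library and at or under the limit of 3 fragments in 2 of them. Under Salmonella it stood at 7.96, 2.17 and 2.39 FPKM, from 96 to 340 fragments. The knockout groups did not overlap, and the outlying wild-type library, at 5.51, lay within the range of the knockout Salmonella libraries. The means were in a ratio of 36.7, beside 83.9 in wild-type hosts. From the pooled fragments, 537 under Salmonella against 14 under PBS, the ratio was 36.6 with an exact 95% interval of 21.6 to 67.4 for counting error alone, and in wild-type hosts it was 80.1 (60.8 to 107.8). On the log2 scale with 0.5 added, which compresses the knockout PBS values most, the difference of 2.71 (SE 0.77) did not pass (limma, adjusted p = 0.115), and it passed when the outlying wild-type library, which enters only the shared estimate of spread, was left out (2.70, SE 0.38, adjusted p = 0.00994). With 0.1 added in place of 0.5 it was 4.14 (adjusted p = 0.0535), and with voom it was 5.04 (SE 4.10, adjusted p = 0.525).

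Osm encodes oncostatin M, a cytokine made mainly by myeloid cells. Its level was 1.71, 1.44 and 2.25 FPKM in wild-type PBS libraries and 16.0, 32.9 and 6.02 in wild-type Salmonella libraries. Every Salmonella library exceeded every PBS library, with M-1 highest, the library that also held the highest neutrophil marker sum. That sum was close in F-1 and M-2 (3077 and 2784 FPKM), while Osm was 16.0 and 6.02 FPKM. The rise of Osm was 2.94 (SE 0.52, limma, adjusted p = 0.00358), and 3.66 without the outlying library (adjusted p = 2.16e-05). In knockout hosts Osm stood at 2.14, 2.67 and 2.50 FPKM under PBS and at 6.40, 3.52 and 5.61 under Salmonella. Under Salmonella Osm was highest there in F-1 and the neutrophil marker sum in M-2 (961 FPKM), and their relation was not tested. The knockout groups did not overlap either, and the difference of 0.93 (SE 0.52) did not pass (adjusted p = 0.354).

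Lif encodes LIF, the ligand of the receptor pair LIFR and gp130. It was the most abundant of the 4 ligand RNAs in all 6 PBS libraries, at 6.77, 5.05 and 5.06 FPKM in wild-type and 7.59, 5.08 and 4.05 in knockout hosts. Under Salmonella it stood at 18.6, 7.37 and 7.62 FPKM in wild-type and 13.1, 7.77 and 9.12 in knockout hosts. Each Salmonella group lay above its PBS group, and the F-1 library was the highest of its group in all 4. The differences were 1.01 (SE 0.37, limma, adjusted p = 0.0567) in wild-type and 0.82 (adjusted p = 0.265) in knockout hosts, so neither passed. Without the outlying library the wild-type difference was 1.31 and passed (adjusted p = 0.0211), and without F-1 of the wild-type Salmonella group it was 0.54 (adjusted p = 0.169). It also passed in the fit with the title ending as a replicate block (1.01, SE 0.19, adjusted p = 0.0058).

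Il11 encodes IL-11, a stromal cytokine known from gastrointestinal tumours of mice. Its level was 2.08, 2.74 and 2.79 FPKM in wild-type PBS and 4.59, 5.40 and 1.66 in wild-type Salmonella libraries. F-1 and M-1 lay above the PBS libraries and M-2 below all of them, so the groups overlapped. The difference of 0.60 (SE 0.35) did not pass (limma, adjusted p = 0.203), and without M-2 it was 1.14 and passed (adjusted p = 0.000227). In knockout hosts the levels were 3.06, 2.87 and 2.39 FPKM under PBS and 2.41, 1.71 and 2.28 under Salmonella (difference -0.29, adjusted p = 0.676).

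The makeup of the ligand RNA is described by the sum of the 4 ligand genes in FPKM. It was 10.4 ± 0.689 (SD, n = 3) in wild-type PBS and 10.9 ± 1.86 in knockout PBS libraries. It was 87.4, 92.2 and 20.8 in wild-type Salmonella libraries and 29.8, 15.2 and 19.4 in knockout Salmonella libraries. Under PBS, Il6 made up 3.84% ± 1.17 of the sum in wild-type and 1.14% ± 1.07 in knockout hosts, and Lif 54.2% ± 7.51 and 50.3% ± 7.75. Under Salmonella the share of Il6 was 55.1%, 50.5% and 26.5% in the 3 wild-type libraries and 17.8% ± 7.78 in knockout libraries. Il6 was the most abundant ligand in F-1 and M-1 of wild-type hosts given Salmonella, and Lif was in the other 10 libraries. The share of Il11 was 24.7% ± 4.94 in wild-type PBS and 6.36% ± 1.43 in wild-type Salmonella libraries, against 25.6% ± 1.63 and 10.4% ± 2.0 in knockout hosts. In both genotypes its share was thus lower under Salmonella in every library, while its own level did not pass in the fit of 12 libraries and passed as higher in wild-type hosts without the outlying library. No test was run on these shares.

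**Figure D2:**
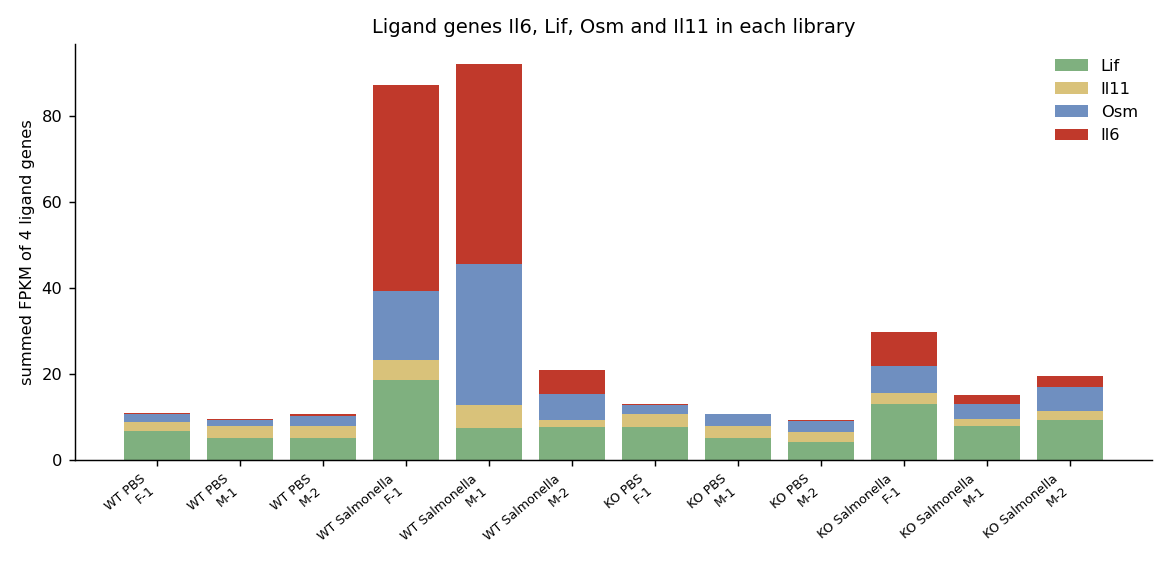
Summed FPKM of the ligand genes Lif, Il11, Osm and Il6 in each of the 12 libraries, stacked by gene from 0. The sums of F-1 and M-1 in the wild-type Salmonella group reach 87.4 and 92.2, and M-2 of that group at 20.8 lies among the knockout Salmonella libraries, which range from 15.2 to 29.8.

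Il6ra encodes the specific chain for IL-6. Its level was 8.65, 7.78 and 7.23 FPKM in wild-type PBS and 6.29, 5.46 and 9.22 in wild-type Salmonella libraries. In knockout hosts it stood at 7.66, 8.63 and 6.52 under PBS and at 7.03, 8.94 and 7.28 under Salmonella. All 4 groups overlapped, and the fitted differences were 0.00 (SE 0.14) in wild-type and 0.05 (SE 0.14) in knockout hosts. Il6ra overlaps an antisense gene in GENCODE, and whether the authors counted by strand is not given in the sources used here.

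Il6st encodes gp130, shared by the whole family. Its level was 12.8, 12.6 and 17.7 FPKM in wild-type PBS and 14.0, 11.8 and 13.5 in wild-type Salmonella libraries. In knockout hosts it was 17.1, 14.4 and 10.6 under PBS and 15.7, 11.6 and 13.5 under Salmonella. The groups overlapped here too, with differences of 0.08 (SE 0.18) and -0.01 (SE 0.18). For Il6ra and Il6st the direction in wild-type hosts is not fixed, since with FPKM as deposited both differences were below 0 (-0.19 and -0.12).

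Osmr encodes the chain that pairs with gp130 to bind OSM. Its level was 6.14, 4.68 and 8.57 FPKM in wild-type PBS and 10.2, 10.7 and 9.31 in wild-type Salmonella libraries. The Salmonella libraries lay close together and above all PBS libraries, and the rise was 0.83 (SE 0.28, limma, adjusted p = 0.041). This call was lost with FPKM as deposited (adjusted p = 0.0684) and with no filter (0.072). It was also lost when 1 of 6 libraries was left out, with adjusted p = 0.096 without wild-type PBS F-1, 0.144 without wild-type PBS M-1, 0.13 without wild-type Salmonella F-1, 0.12 without wild-type Salmonella M-1, 0.0509 without knockout PBS M-2 and 0.056 without knockout Salmonella M-2. In knockout hosts the levels were 7.97, 5.35 and 5.96 FPKM under PBS and 11.7, 5.28 and 8.98 under Salmonella, which overlap (difference 0.38, adjusted p = 0.494).

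Lifr encodes the receptor chain for LIF, and its RNA was the least abundant of the receptors in every library. Its level was 0.408, 0.273 and 0.466 FPKM in wild-type PBS and 0.786, 0.735 and 0.637 in wild-type Salmonella libraries. In knockout hosts it was 0.202, 0.225 and 0.217 under PBS and 0.606, 0.343 and 0.377 under Salmonella. In both genotypes the Salmonella libraries lay above the PBS libraries, and under each treatment the knockout libraries lay below the wild-type ones. The rise in wild-type hosts was 0.59 (SE 0.17, limma, adjusted p = 0.0211). The filter let Lifr in through Salmonella libraries, so its call there is no independent support for a rise. With no filter the difference was 0.56 (adjusted p = 0.0196), with 0.1 added in place of 0.5 it was 0.96, and with voom it was 1.11 (adjusted p = 0.0121). The call was lost with the compared groups alone (adjusted p = 0.0568) and without wild-type PBS M-1 (0.0821), wild-type Salmonella F-1 (0.0856) or wild-type Salmonella M-1 (0.0692). Osmr and Lifr lie near each other on chromosome 15 with no protein-coding gene between them, and Osm and Lif are direct neighbours on chromosome 11 in RefSeq.

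Stat3 encodes the transcription factor that carries the family's signal, and it was the most abundant of the 10 RNAs in every group but 1. Its level was 58.5, 58.2 and 61.0 FPKM in wild-type PBS and 56.3, 53.3 and 59.4 in wild-type Salmonella libraries. In knockout hosts it was 62.7, 67.9 and 57.8 under PBS and 56.0, 43.6 and 53.8 under Salmonella. The fitted difference was 0.13 (SE 0.11, limma, adjusted p = 0.342) in wild-type hosts and -0.28 (SE 0.11, adjusted p = 0.194) in knockout hosts. With FPKM as deposited the wild-type difference was -0.07, so its direction is not fixed. Stat3 overlaps Stat5a on the opposite strand in GENCODE, and fragments of the overlap cannot be assigned without strand.

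Socs3 encodes the feedback inhibitor that STAT3 induces and that other inflammatory signals also induce. Its level was 26.4, 30.3 and 33.6 FPKM in wild-type PBS and 98.5, 121.8 and 52.0 in wild-type Salmonella libraries. Every Salmonella library exceeded every PBS library, and M-2 was again the lowest. Socs3 rose by 1.70 (SE 0.38, limma, adjusted p = 0.00841), and by 2.16 without the outlying library (adjusted p = 0.000414). In knockout hosts the levels were 34.8, 40.8 and 27.9 FPKM under PBS and 51.2, 24.99 and 48.9 under Salmonella. Knockout Salmonella M-1 lay below all PBS libraries while the other 2 lay above them, and the difference of 0.24 (SE 0.38) did not pass (adjusted p = 0.758).

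The ratio of Socs3 to Stat3 FPKM, a per-length comparison of inhibitor and activator RNA within a library, was 0.507 ± 0.0505 (SD, n = 3) in wild-type PBS libraries. It was 1.75, 2.29 and 0.876 in wild-type Salmonella libraries. In knockout hosts it was 0.547 ± 0.0595 under PBS and 0.914, 0.573 and 0.909 under Salmonella. Socs3 exceeded Stat3 in F-1 and M-1 of wild-type hosts given Salmonella and in no other library. By mean FPKM the order in wild-type PBS libraries was Stat3, Socs3, Il6st, Il6ra, Osmr, Lif, Il11, Osm, Il6 and Lifr. The ranges of the neighbours Il6ra and Osmr, Osmr and Lif, Il11 and Osm, and Il6 and Lifr overlapped. In wild-type Salmonella libraries it was Socs3, Stat3, Il6, Osm, Il6st, Lif, Osmr, Il6ra, Il11 and Lifr. There the ranges of Socs3 and Stat3 overlapped, as did those of each pair of neighbours from Il6 to Osmr, while Stat3 lay above Il6, Osmr above Il6ra and Il6ra above Il11 in every library. In knockout Salmonella libraries Il6 ranked by mean below Osm and above Il11. Il6 exceeded Osm there in F-1 (7.96 against 6.40 FPKM), and its range overlapped those of both.

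Across the 10 genes, 5 were called higher, Il6 and Lifr among them, and none lower in wild-type hosts (6 at an unadjusted p under 0.05), with a median difference of 0.72. Of all 12164 genes tested, 35.4% were called there in either direction, 19.2% as higher and 16.2% as lower. Their median difference was near 0. The 10 genes were chosen with earlier results of these data known. This contrast and those below with all genes are thus descriptions and no independent results. The groups did not overlap for 6 of the 10 (Il6, Lif, Osm, Osmr, Lifr and Socs3), against 45.4% of all genes. The number of members called fell to 3 without M-1 of the wild-type PBS group (12.4% of all genes called higher in that fit) or without F-1 (8.91%) or M-1 (10.1%) of the wild-type Salmonella group. It was 7 without the outlying library, where 27.5% of all genes were called higher and 51.4% in either direction. In knockout hosts limma called 0 of the 10 (3 at an unadjusted p under 0.05, 0 with voom), with a median of 0.31, where 0.756% of all genes were called. Without the outlying library it called 1, Il6, beside 6.11% of all genes. The knockout groups did not overlap for 4 of the 10 on the scaled values (Il6, Lif, Osm and Lifr), and for those and Stat3 in FPKM, against 29.4% of all genes on either scale. The 2 effects share no library. A call in one genotype and none in the other is not a difference between them, which the interaction tests.

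Knockout and wild-type hosts under Salmonella were compared directly. The fitted difference, knockout minus wild type, was below 0 for all 10 genes, with a median of -0.46 beside a median near 0 over all genes. That of Il6ra was only -0.003 (SE 0.14). Of the 10, limma called 0 (5 at an unadjusted p under 0.05, 0 with voom), where 8.74% of all genes were called. With FPKM as deposited Il6ra and Il6st were above 0 (0.16 and 0.05), and Il6 passed (-2.57, adjusted p = 0.048). Il6ra was also above 0 without the outlying library (0.11), and Lif without F-1 of the wild-type Salmonella group (0.25). In the fit of 12 libraries the differences were -2.75 for Il6 (SE 0.77, adjusted p = 0.053), -1.64 for Osm (SE 0.52, adjusted p = 0.071) and -1.28 for Socs3 (SE 0.38, adjusted p = 0.0603). On the scaled values the groups did not overlap for 2 of the 10, Stat3 (-0.32, adjusted p = 0.073) and Lifr (-0.49, adjusted p = 0.087), against 25.7% of all genes. In FPKM as deposited the 2 were Lifr and Socs3 (27% of all genes), the groups of Stat3 overlapped, and its difference was -0.15 (adjusted p = 0.293). Without the outlying library, 6 of the 10 passed as lower in knockout hosts, where 21.2% of all genes did. These were Il6 by -3.84, Osm by -2.36, Socs3 by -1.73, Il11 by -1.32, Lifr by -0.60 and Stat3 by -0.38, with limma adjusted p from 0.000254 to 0.0235. Lifr entered the test through the wild-type Salmonella libraries and knockout Salmonella F-1 alone. Its call and its lack of overlap under Salmonella are thus no independent support for a difference. Under PBS limma called no gene (0% of all genes, 176 at an unadjusted p under 0.05; 0 of the 10 at an unadjusted p under 0.05, 0 with voom), and the members' differences lay between -0.53 for Il6 (SE 0.77) and 0.36 for Osm. That of Il6, which rests on few fragments, was -1.25 with 0.1 added in place of 0.5 and -1.91 (SE 4.74) with voom. The PBS groups of Il6 and Lifr did not overlap, against 7.89% of all genes.

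The interaction, the knockout effect of Salmonella minus the wild-type effect, asks whether the response itself differed. limma called 0 of the 10 (3 at an unadjusted p under 0.05, 0 with voom), where 0.0247% of all genes were called. The values were -2.21 for Il6 (SE 1.09, adjusted p = 0.367), -2.01 for Osm (SE 0.73, adjusted p = 0.298), -1.46 for Socs3 (SE 0.53, adjusted p = 0.298) and -0.41 for Stat3 (SE 0.15, adjusted p = 0.294). With voom the value of Il6 was -0.85 (SE 4.91, adjusted p = 0.946), and with FPKM as deposited that of Stat3 was -0.23. Without the outlying library, 5 passed, all below 0, where 12.1% of all genes did: Il6 (-3.31, adjusted p = 0.00631), Osm (-2.72, 0.00387), Socs3 (-1.92, 0.0138), Il11 (-1.43, 0.00318) and Stat3 (-0.47, 0.0479). That library decides these calls, and its labels give no reason to leave it out. The wild-type effect, the comparison under Salmonella and the interaction share the wild-type Salmonella libraries and are not independent of each other. The plot of differences with and without the library shows both sets of values.

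**Figure D3:**
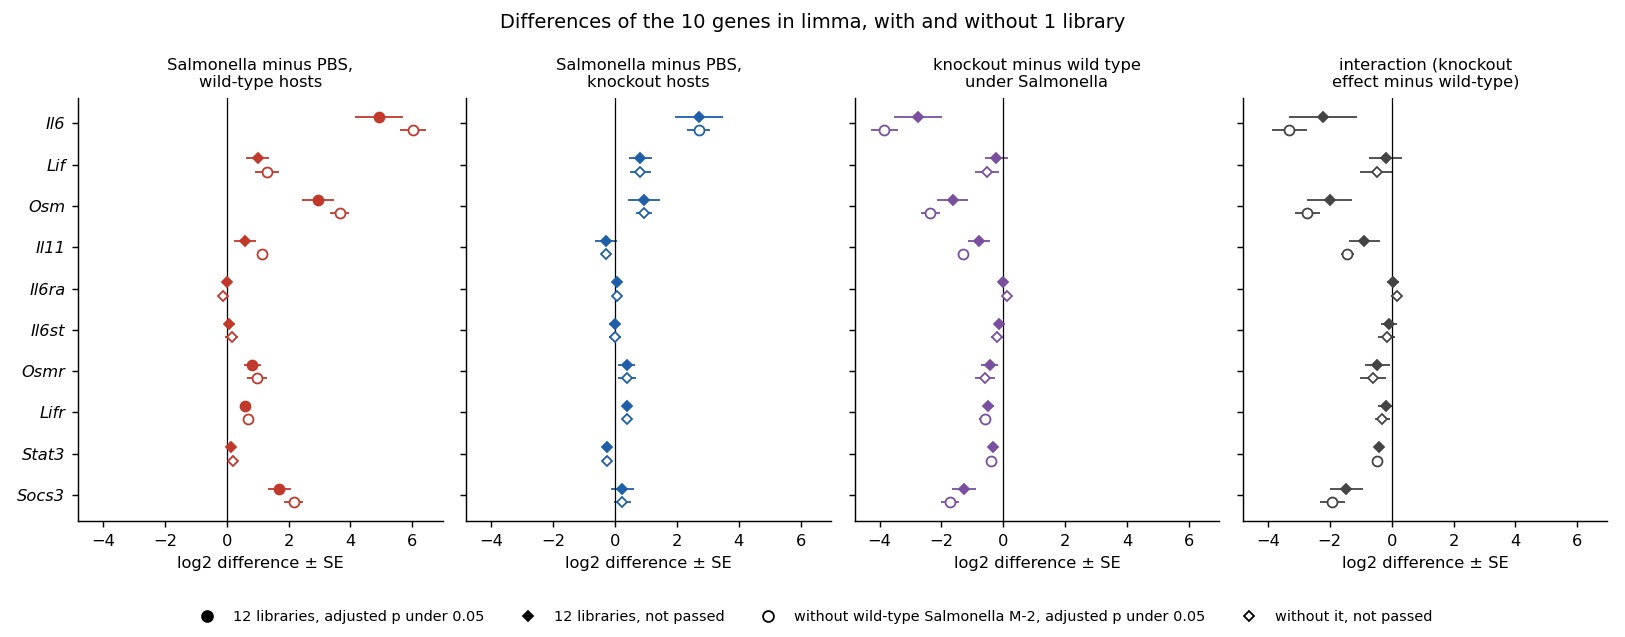
Differences of the 10 genes on the log2 scale with their SE in 4 comparisons, from 12 libraries (filled) and without M-2 of the wild-type Salmonella group (open), with circles for adjusted p under 0.05 and diamonds otherwise. In the panels of knockout minus wild type and of the interaction no filled marker is a circle, while 6 and 5 of the open markers are.

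Other genes of the pathway were read by list, and the shares of all genes called in wild-type hosts, 19.2% as higher and 16.2% as lower, are the background of each count. Among 6 tested ligand and partner genes of the family, 2 rose and 1 fell in wild-type hosts, where the median was -0.07. Ebi3, a subunit of IL-27 that resembles a soluble receptor, stood at 2.58, 3.84 and 3.11 FPKM under PBS and at 15.6, 27.6 and 5.71 under Salmonella, a rise of 2.15 (SE 0.57, limma, adjusted p = 0.017). Il27, its partner subunit, rose by 1.18 (adjusted p = 0.039), although the outlying library at 1.56 FPKM lay within the PBS range of 1.18 to 1.79. Clcf1, which encodes another ligand of the family, did not pass (-0.28, adjusted p = 0.22). Ebi3 passed in 8 and Il27 in 4 of 12 fits that each left out 1 library, and no more than 1 of the 6 genes passed without any 1 of the wild-type PBS libraries, without F-1 or M-1 of the wild-type Salmonella group, and with voom. Of the other receptor chains, the tested Il11ra1 (0.12, adjusted p = 0.405) and Il27ra (-0.01, adjusted p = 0.989) did not pass. Il11ra1 has a near-identical copy, so its counts are uncertain.

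Among 10 Janus kinase and other STAT genes, 1 rose and 2 fell in wild-type hosts (median -0.08), a share called near the 35.4% of all genes. Stat5a, which acts downstream of growth hormone and several interleukins, rose by 0.65 (limma, adjusted p = 0.00424), from 8.59 ± 0.162 to 11.9 ± 1.06 FPKM (SD, n = 3). As given above, it overlaps the more abundant Stat3 on the opposite strand, and fragments of the overlap cannot be assigned without strand. Tyk2, a kinase bound to gp130 and other receptors, fell by 0.41 (adjusted p = 0.0168), a call lost without wild-type PBS M-2 or wild-type Salmonella F-1 (highest adjusted p = 0.065). Jak2 did not pass (0.37, adjusted p = 0.0896). With FPKM as deposited 1 of the 10 rose and 5 fell, beside 1500 and 3365 of all 12164 genes. Without the outlying library, 3 rose and 2 fell, beside 3314 and 2885 of 12060.

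Of 15 other inhibitor genes (SOCS proteins, PIAS proteins and phosphatases), 3 rose and 4 fell in wild-type hosts (median -0.07), where 35.4% of all genes were called. Ptpn2, a phosphatase that acts on Janus kinases and STATs, stood at 35.8, 40.3 and 37.2 FPKM under PBS and at 66.4, 59.7 and 51.4 under Salmonella, a rise of 0.84 (SE 0.14, limma, adjusted p = 0.00242). Ptpn1, a related phosphatase, rose by 0.43 (adjusted p = 0.0146), a call lost with FPKM as deposited and without wild-type PBS M-2 or wild-type Salmonella F-1 (highest adjusted p = 0.0668). Socs5 fell by 0.67 (adjusted p = 0.00346) and Pias3, an inhibitor of STAT3 binding to DNA, by 0.61 (adjusted p = 0.00599). In knockout against wild-type hosts under Salmonella, 8.74% of all genes were called. Of the 15, 1 (Socs5, 0.52, adjusted p = 0.0306) was higher and 1 (Ptpn1, -0.47, adjusted p = 0.0327) was lower in knockout hosts. Both calls were lost without F-1 or M-1 of the wild-type Salmonella group and without M-1 or M-2 of the knockout Salmonella group, and that of Ptpn1 also without wild-type PBS M-2 or knockout Salmonella F-1 (highest adjusted p = 0.138). Without wild-type PBS M-2 or wild-type Salmonella F-1, 1 of the 15 rose and 2 fell in wild-type hosts, and without wild-type Salmonella M-1, 2 rose and 2 fell. Of 12143, 12048 and 12055 genes tested in these fits, in this order, 1281, 1074 and 1214 rose and 1094, 975 and 1063 fell.

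Of 7 genes for shedding of the IL-6 receptor and turnover of Il6 RNA, 3 rose and none fell in wild-type hosts (median 0.02). Zc3h12a, which encodes the RNase Regnase-1 that degrades Il6 RNA, stood at 5.97, 5.93 and 6.74 FPKM under PBS and at 34.5, 37.5 and 18.2 under Salmonella. It rose by 2.32 (SE 0.30, limma, adjusted p = 0.00111), and M-2, though lowest of its group, was well above the PBS libraries. Zfp36, whose product also destabilises inflammatory RNAs, rose by 1.89 (SE 0.41, adjusted p = 0.00796), from 16.8, 21.3 and 16.7 to 61.4, 109.3 and 31.3 FPKM. Rhbdf2, which brings the receptor sheddase to the cell surface, rose by 0.73 (adjusted p = 0.0248), and Adam17, the sheddase, did not pass (-0.14, adjusted p = 0.212). The call of Rhbdf2 was lost without wild-type PBS M-1 or M-2 or wild-type Salmonella F-1 or M-1 (highest adjusted p = 0.106). Under Salmonella Zc3h12a was lower in knockout hosts by -1.46 (SE 0.30, adjusted p = 0.0234), lost without F-1 or M-1 of the wild-type or M-1 or M-2 of the knockout Salmonella group (highest adjusted p = 0.112).

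Of 23 tested genes known as STAT3 targets, 18 rose and 2 fell (Ccnd1 and Vegfa) in wild-type hosts, with a median of 1.30 beside a median near 0 over all genes. Because the list was chosen with earlier results of these data known, this contrast is a description and no independent result. Many of them answer other inflammatory signals too, and several are abundant in neutrophils, whose markers rose in the same libraries. Lcn2, an iron-withholding protein of neutrophils and epithelia, stood at 1.57, 0.434 and 0.663 FPKM in wild-type PBS and at 809, 2314 and 416 in wild-type Salmonella libraries. It rose by 9.64 (SE 0.75, limma, adjusted p = 0.000132), and its highest library was the one with the highest neutrophil marker sum. Saa3, an acute-phase protein, rose by 8.12 (SE 0.82, adjusted p = 0.000438), from 53.9, 5.97 and 16.1 to 5348, 5207 and 2988 FPKM. Its highest library was F-1. Hp, which encodes haptoglobin, rose by 5.35 (SE 0.47, adjusted p = 0.000194) and Steap4, a metalloreductase, by 3.47 (SE 0.42, adjusted p = 0.000837). For these 4 genes the outlying library lay above every PBS library.

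In knockout hosts 3 of the 23 rose (0.756% of all genes were called), Lcn2 by 6.23 (adjusted p = 0.00975), Saa3 by 5.03 (adjusted p = 0.0314) and Hp by 2.80 (adjusted p = 0.0346) in limma, and none fell. The count was 7 without the outlying library (6.11% of all genes called). It was 1 without wild-type PBS M-2, knockout PBS F-1 or knockout PBS M-1, and 0 without knockout Salmonella F-1 or M-2 and with voom. Under Salmonella, 12 of the 23 were lower (5.82% of all genes) and 1 (Ccnd1, 0.54, adjusted p = 0.0419) was higher in knockout than in wild-type hosts, with Lcn2 lower by -3.69 (SE 0.75, adjusted p = 0.0224) and Hp by -2.75 (SE 0.47, adjusted p = 0.0157). Without the outlying library, 17 were lower (21.2% of all genes). None was called without F-1 or M-1 of the wild-type Salmonella group or without knockout Salmonella M-2, and 1 was without knockout Salmonella M-1. Between 4 and 8 were lower without wild-type PBS F-1 or M-2 or knockout PBS F-1. The interaction was called for 0 of the 23 by limma (12 at an unadjusted p under 0.05, 0 with voom), and for 10, all below 0, without the outlying library (12.1% of all genes below 0).

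**Figure D4:**
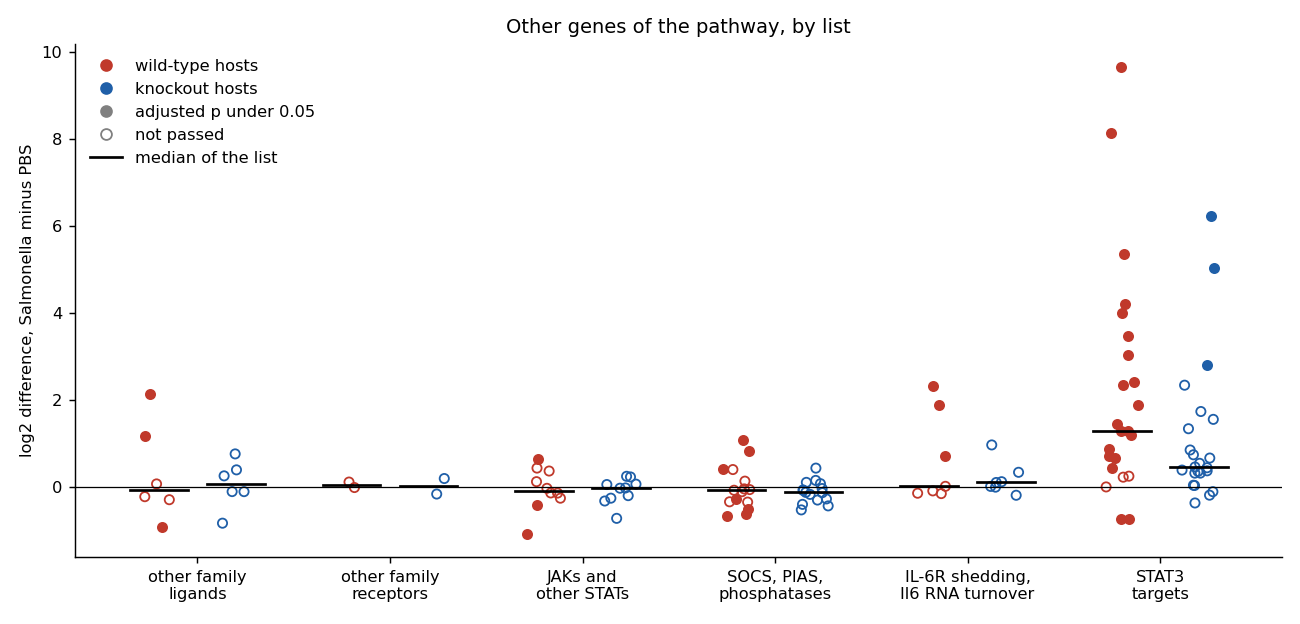
Differences on the log2 scale, Salmonella minus PBS, of the tested genes of each pathway list in wild-type (red) and knockout (blue) hosts, filled where the adjusted p was under 0.05, with bars at list medians. In wild-type hosts the STAT3 target list has its median at 1.30 and the other lists have theirs between -0.08 and 0.06. The lists were chosen with earlier results of these data known.

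The genes most like Il6 across the 12 libraries, by Pearson correlation of log2 values among 11796 genes, were Ptgs2 (0.988), Gch1 (0.987), Depp1 (0.986) and Angptl4 (0.983). Left out of this ranking were the 10 genes themselves and genes with predicted, RIKEN or clone-type symbols. Ptgs2 encodes cyclooxygenase-2 and Gch1 the first enzyme of tetrahydrobiopterin synthesis. The genes most like Socs3 were Pfkfb3 (0.984), Il4ra (0.983), Btg2 (0.982) and Pde4b (0.982), of which Il4ra is also on the STAT3 target list. Among the 10 genes themselves, Il6 correlated with Osm at 0.956, with Lifr at 0.94, with Socs3 at 0.904, with Stat3 at 0.24 and with Il6ra at -0.17. The 12 points share 4 group means and the same library totals, so these values describe likeness of pattern and carry no test.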

How the data were processed

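Total RNA of 12 MC38 tumour libraries was grouped by the genotype and treatment labels, and replicates are named by their titles. TRIzol was used for extraction and a VAHTS kit for libraries, per the labels' protocols. The submitters' processing notes name fastp, HISAT2 and HTSeq without versions, and genome build and strand setting are not given in the sources used. From their reads the authors deposited 1 table per library, whose values behave as FPKM: for 18221 of the 18222 genes above 0 somewhere (99.99%) they were whole fragments at 1 gene length, within 0.01 fragments, and 387 genes were at 0 everywhere. Floors and fragment numbers cover counting error only.

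Differences were fitted with limma 3.58.1 (R 4.3.3), with an intensity trend and robust moderation. The response was log2 of the scaled FPKM plus 0.5, and the model held 4 group means over 12 libraries, leaving 8 residual degrees of freedom. Scaling factors, an unweighted trimmed mean of log ratios over tested genes, were 0.844 (F-1) and 0.845 (M-1) in the wild-type Salmonella group and between 1.001 and 1.049 elsewhere. The filter was 0.5 FPKM in 3 or more libraries, and tests were two-sided, with Benjamini-Hochberg adjustment over all 12164 and a threshold of 0.05. No replicates were identical (chi-square per gene 17.6 to 175). The fit was tested on simulated data. Alternatives were other scalings, no filter, other pseudocounts, only the groups compared, a replicate block, voom on recovered fragments, and each library left out.

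The 10 genes, the lists and the rules were chosen with earlier results of these data known. The text names all 10, the up to 4 genes per pathway list that rank first by p for the wild-type effect, up to 2 that passed in knockout hosts or for the interaction, and the 4 genes most like Il6 and Socs3. Ccnd1 and Vegfa, outside this rule, are named as exceptions to a count and were chosen after their values were seen. Some genes that the rule picks are counted with their lists but not reported here one by one. Promoter windows and gene neighbours are from RefSeq (GRCm38.p6), and overlaps from GENCODE M21.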

Additional observations from a re-analysis of the deposited data

How the results depend on the processing

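The 10 genes' differences in 5 comparisons had 20 alternatives each, or 19 where the compared groups alone left a gene under the filter (Lifr in knockout hosts, Il6 and Lifr under PBS). Of these 997 values, 918 kept their direction and side of the threshold, 16 newly passed, 13 no longer passed and 50 changed sign. In wild-type hosts Osm and Socs3 passed in 20 of 20 alternatives, Il6 in 19, Lifr in 16 and Osmr in 12. Calls over all genes in wild-type hosts were 4312, against 2435 with only the groups compared and 2049 to 6199 with 1 library left out, and those of members were 3 to 7. In knockout hosts they were 92, against 46 with no filter, 188 with only the groups compared, 22 with voom and 4 to 737 with 1 library left out (members 0 to 1). For knockout against wild type under Salmonella they were 1063, against 12 with only the groups compared, 531 with voom and 10 to 4559 with 1 library left out (members 0 to 6, and 1 with FPKM as deposited). Under PBS they were 0, and 1 with no filter. For the interaction they were 3, against 6 with FPKM as deposited, 0 with voom and 2 to 2210 with 1 library left out (members 0 to 5). The highest of these counts, other than under PBS, were all without M-2 of the wild-type Salmonella group. The cause was not tested.

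FPKM as deposited moved the median of all genes by -0.19 in wild-type hosts and the split of calls there from 2337 higher and 1975 lower to 1500 and 3365. It turned Il6ra to -0.19, Il6st to -0.12 and Stat3 to -0.073 in wild-type hosts, Il6ra to 0.16 and Il6st to 0.047 under Salmonella, and Il6st to 0.088 for the interaction. Il6ra was also turned with no filter (-0.045 in wild-type hosts, 0.038 under Salmonella) and with only the groups compared (-0.005 and 0.012). With 1 library left out, differences that changed sign ranged as follows. In wild-type hosts Il6ra ranged from -0.11 to 0.11 and Il6st from -0.021 to 0.22. In knockout hosts Il6ra ranged from -0.046 to 0.14 and Il6st from -0.19 to 0.14. Under Salmonella, knockout against wild type, Lif ranged from -0.53 to 0.25 and Il6ra from -0.11 to 0.11. Under PBS Lif ranged from -0.26 to 0.14, Il6ra from -0.14 to 0.044, Il6st from -0.19 to 0.14 and Osmr from -0.18 to 0.22. For the interaction Lif ranged from -0.49 to 0.29, Il6ra from -0.06 to 0.16 and Il6st from -0.26 to 0.059. None of these differences passed.

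Libraries with the same title ending did not consistently deviate together (correlations of deviations from the group means -0.33 to 0.40, not all over 0.1 in any comparison). Single pairs did, as F-1 of the Salmonella groups (0.336) and M-1 of the PBS groups (0.397), but pairs with other endings reached 0.409. These values over all genes cannot exclude a shared deviation of single genes such as Lif, highest in F-1 of all 4 groups. The block was kept as an alternative. What F and M stand for is not given in the labels, and what else such libraries share was not tested. With the replicate block, calls over all genes in knockout hosts were 46 against 92, and Lif in wild-type hosts passed (1.01, adjusted p = 0.0058); no other member's call changed. The 2 to 9 fragments of Il6 in knockout PBS libraries limit the precision of its fold there.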
